A study of Bos taurus with 8 samples.

Results

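The respiratory chain of mitochondria is built from genes of 2 genomes. Genes of the chain, picked by symbol, were followed in bovine trophectoderm outgrowths collected on day 35 or day 41. The members were chosen by name and position and not by any measured value, so a subunit without a matching symbol was not covered. They were the 13 protein-coding genes named on the mitochondrial chromosome (ND1 to ND6, ND4L, COX1 to COX3, ATP6, ATP8 and CYTB) and the 81 nuclear genes whose symbols mark subunits of complexes I to V. Together they were 94 of the 14970 genes in the table. By complex, the nuclear members numbered 36 in complex I, 4 in complex II, 9 in complex III, 14 in complex IV and 18 in complex V. All members except the nuclear gene NDUFA4L2 reached the level needed for the test between the days, so 93 were tested.

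Complexes I to IV pass electrons from NADH and succinate to oxygen and, at all but complex II, pump protons out of the mitochondrial matrix. Complex V, the ATP synthase, lets the protons back and makes ATP. The mitochondrial genome is transcribed as long precursors that are cut into single RNAs, whereas each nuclear subunit has its own promoter and its protein is imported. The trophectoderm is the outer epithelium of the blastocyst, which pumps fluid into the blastocyst cavity with an ATP-driven sodium pump, gives rise to the placenta and holds many mitochondria.

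The embryos (Bos taurus) were produced in vitro, plated after hatching on collagen IV on day 10 and grown in trophectoderm medium. Each library came from the total RNA of 1 embryo's outgrowth, with 4 libraries from day 35 (A to D) and 4 from day 41 (E to H). No other treatment, breed or sorting of cells is given in the sources used here, so every cell that grew out was part of the sample. In such bulk samples, fewer cells of a type and less RNA per cell cannot be told apart. Levels are RPKM, reads per kilobase of exon scaled to the size of the library, and mean ± SD has n = 4 per day.

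The libraries held 106402848 to 158034430 reads recovered from the RPKM values. All 9 trophectoderm markers had values, and their summed level was 7584 to 12572 RPKM on day 35 and 6110 to 7772 RPKM on day 41. PAG2 and PAG11, both pregnancy-associated glycoproteins, were among the markers. Library A had the highest sum, with PAG2 at 4349 RPKM in A against 493 to 781 RPKM in B to D. Markers of hypoblast (6 with values) summed to 21.1 to 446 and 13.9 to 146 RPKM, and those of mesoderm and stroma (7) to 16.5 to 239 and 2.13 to 32.8 RPKM, with both lists highest in library B. Over all libraries the hypoblast markers ran from 9.65 to 336 RPKM for APOA1, 0 to 95.4 for AFP, 0 to 9.20 for TTR, 0.924 to 5.84 for GATA6, 0.0922 to 2.15 for SOX17 and 0.00219 to 0.419 for GATA4. The immune list (3 with values, most of its sum from AIF1) came to 183.5 to 285 and 231 to 289 RPKM, the striated muscle list (4, most from DES) to 48.6 to 66.6 and 46.7 to 66.0 RPKM, and the cumulus and granulosa list (4) to 6.27 to 7.61 and 3.69 to 13.2 RPKM. Within these lists, 3 genes had an FDR under 0.05 in the authors' deposited table, where 1.76% of all its genes had one. ACTC1, a muscle actin, averaged 5.01 ± 3.13 RPKM on day 35 and 15.01 ± 4.97 RPKM on day 41 (FDR 2.83e-05), CD14 8.58 ± 0.699 and 13.1 ± 1.63 RPKM (0.0399), and the smooth muscle actin ACTA2 7.93 ± 6.80 and 1.27 ± 1.03 RPKM (9.87e-04). In limma their adjusted p were 0.218, 0.179 and 0.242. The part of these markers in the members' values was not tested. FOXA2, PTPRC, CD3E, CKM, MYH7 and FSHR were not analysed here.

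The levels of the members fell into separate ranges by genome. The 13 mitochondrially encoded members had mean levels between 887 RPKM (ND5) and 12713 RPKM (COX1), with a median of 2777 RPKM. The 80 nuclear members that were tested had a median of 71.8 RPKM, and the highest of them, ATP5F1B, the catalytic beta subunit of the ATP synthase, reached 352 RPKM. No nuclear member was as high as the lowest mitochondrially encoded one. The median of the mitochondrially encoded members was 38.7 times that of the nuclear ones. Because copies of mitochondrial sequence can lie in the nuclear genome, some reads of these genes may fit both places, and the handling of such reads is not given in the sources used here.

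**Figure D1:**
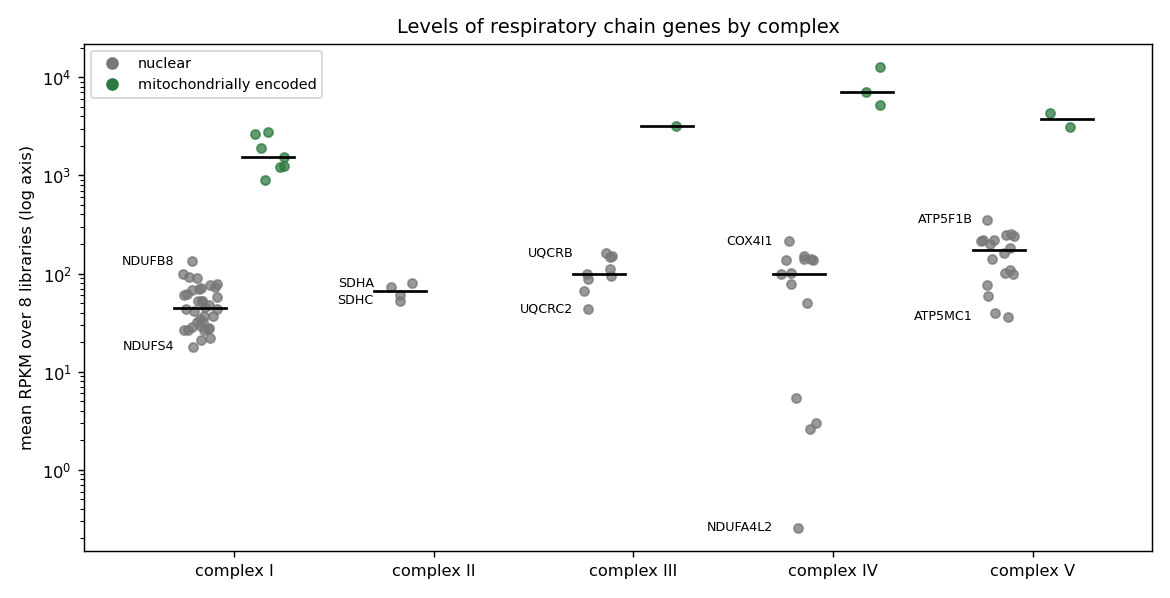
Mean RPKM over the 8 libraries (log axis) of each member, by complex. Grey points are nuclear members, green points mitochondrially encoded ones and lines are medians. The highest and lowest nuclear member of each complex are named. Green points lie above all grey ones, and the nuclear medians go from 44.7 RPKM in complex I to 172 RPKM in complex V.

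Among the nuclear members, levels per length differed by complex. The median was 44.7 RPKM in complex I, 66.5 in complex II, 99.9 in complex III, 100.2 in complex IV and 172 in complex V. Complex I ranged from 17.99 RPKM for NDUFS4, an accessory subunit near the NADH-oxidising module, to 134 RPKM for NDUFB8, an accessory subunit of the membrane arm. In complex II the membrane anchor SDHC was lowest at 52.5 RPKM and the flavoprotein SDHA, which oxidises succinate, highest at 79.5 RPKM. Complex III ranged from 43.5 RPKM for the core protein UQCRC2 to 163 RPKM for UQCRB, a small subunit next to cytochrome b. In complex IV the lowest was NDUFA4L2 at 0.256 RPKM and the highest COX4I1, the widely expressed form of subunit 4, at 212 RPKM. Complex V ranged from 36.0 RPKM for ATP5MC1, a gene of the membrane ring, to 352 RPKM for ATP5F1B.

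COX1, COX2 and COX3, the catalytic core of cytochrome c oxidase, were the 3 highest mitochondrially encoded members per length. COX1, which carries the site of oxygen reduction and lies at bases 5687 to 7231 of the mitochondrial chromosome on ARS-UCD1.2, stood at 12905, 10412, 12738 and 11584 RPKM in libraries A to D and at 13820, 12416, 12257 and 15572 RPKM in E to H. The days overlapped for COX1, with library H highest and library B lowest. COX3 (bases 8970 to 9750) averaged 6769 ± 1052 RPKM on day 35 and 7228 ± 567 RPKM on day 41, and COX2 (7374 to 8057), which takes electrons from cytochrome c, 5095 ± 1114 and 5380 ± 323 RPKM. ATP6 (8290 to 8970), the proton channel of the ATP synthase, averaged 4146 ± 585 and 4566 ± 459 RPKM. CYTB (14514 to 15653), the quinol-oxidising core of complex III, averaged 2951 ± 616 and 3479 ± 301 RPKM. For each of these genes the days overlapped.

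The 7 mitochondrially encoded subunits of complex I form the core of its membrane arm and had lower levels, with a median of 1523 RPKM. ND1 (bases 3101 to 4056) averaged 2565 ± 468 RPKM on day 35 and 2990 ± 229 RPKM on day 41. ND2 (4266 to 5307) averaged 1390 ± 124 and 1656 ± 116 RPKM, and the days overlapped for both genes. ND6 (13913 to 14440), the 1 member read from the other strand, averaged 1185 ± 217 and 1274 ± 34.2 RPKM. ND3 (9823 to 10168) stood at 3860 RPKM in library A against 1804 to 2370 RPKM in B to D and 2643 to 2871 RPKM on day 41. Library A was thus the highest of all 8 for ND3.

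ND5, ND4 and ND4L had days that did not overlap. ND5 (12109 to 13929) stood at 579.6, 725, 852 and 888 RPKM in libraries A to D and at 1073, 992, 929 and 1060 RPKM in E to H. Every day 41 library was above every day 35 library, and library A was the lowest. Its log2 fold change from day 35 to day 41, computed on log2(RPKM + 1), was 0.43 ± 0.16 (SE), with a limma adjusted p of 0.352. ND4L (10239 to 10535) stood at 759, 991, 1266 and 1212 RPKM in A to D and at 1467, 1282, 1408 and 1540 RPKM in E to H, again with library A lowest. The log2 fold change of ND4L was 0.45 ± 0.18, with a limma adjusted p of 0.390. Without library A the log2 fold changes of ND5 and ND4L were both 0.31. ND4 (10529 to 11906) lay between 1634 and 1960 RPKM on day 35 and between 2013 and 2028 RPKM on day 41, where its SD was 7.47 RPKM.

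**Figure D2:**
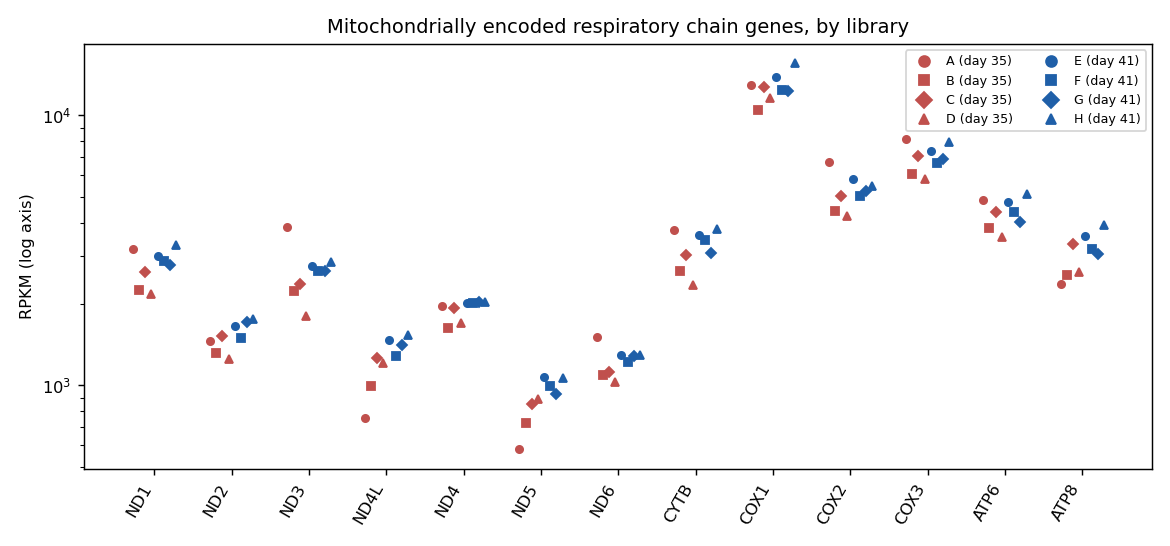
RPKM (log axis) of the 13 mitochondrially encoded members in each library; red symbols are day 35 (A to D), blue symbols day 41 (E to H). ND4L, ND4 and ND5 are the genes whose days do not overlap, and library A (red circle) is the lowest for ND4L, ND5 and ATP8 and the highest for ND3, ND6, COX2 and COX3.

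The mitochondrially encoded members had higher mean log values on day 41 in 13 of 13 cases, where 52.6% of all tested genes did. Their median log2 fold change was 0.18, against 0.01 over all tested genes, and their range ran from 0.10 (COX2) to 0.45 (ND4L). None passed the threshold of an adjusted p under 0.05, with adjusted p between 0.352 and 0.890 in limma, and limma-trend with array weights called ND5. At an unadjusted p under 0.05, 2 of the 13 were higher (ND5 and ND4L), where 5.9% of all tested genes were, and none was lower. All of these genes but ND6 are read from the same strand, and all share their libraries, so they are not 13 independent observations. Leaving out each library in turn kept all 13 higher, and the median then lay between 0.12 (without library B) and 0.28 (without library A). The 95% intervals of single genes were wide beside these medians, as for COX3, from -0.37 to 0.58.

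As a share of all recovered reads, the 13 genes took 4.45%, 3.95%, 4.63% and 4.15% in libraries A to D and 5.06%, 4.76%, 4.59% and 5.46% in E to H. The days overlapped through library C, which lay above library G. The mean share was 4.30% ± 0.305 on day 35 and 4.97% ± 0.384 on day 41. Counted per 100 reads of nuclear genes, the means were 4.49 ± 0.333 and 5.23 ± 0.426. These are sums over the members and were not tested.

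Library A had other proportions among the mitochondrially encoded members than the other 7 libraries. The ratios given here were picked after the values had been seen. ND3 and ND4L are neighbours on the mitochondrial chromosome, and the ratio of their RPKM was 5.08 in library A and 1.49 to 2.25 in the others. ND5 over CYTB was 0.154 in A and 0.273 to 0.379 in the others. ATP8 over ATP6, which overlap by 40 bases, was 0.488 in A and 0.667 to 0.771 in the others. ND4L over ND4, which overlap by 7 bases, was 0.388 in A and 0.607 to 0.759 in the others. ND4L (297 bases) and ATP8 (201 bases) are among the shortest members, whereas ND5 (1821 bases) is the longest mitochondrially encoded one. ATP8, a small membrane subunit of the ATP synthase (8129 to 8329), averaged 2718 ± 419.7 RPKM on day 35 and 3437 ± 391 RPKM on day 41, with a log2 fold change of 0.34 ± 0.18 and a limma adjusted p of 0.498.

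The nuclear members had lower mean log values on day 41 in 65 of 80 cases, where 47.4% of all tested genes did. This count depended on libraries A and D, and without library D it was 75. Without library A, 39 were lower and 41 higher, and the median log2 fold change went from -0.12 to 0.0009. None of the 93 members passed the threshold in limma-trend, where 6 of 12582 genes did (0.0477%, with 0.0318% higher and 0.0159% lower). That number was 43 without library A and 0 without B, C, D, E or F. At an unadjusted p under 0.05 were 8 of the 93 members, where 11.7% of all tested genes were. Of the nuclear members, 1 of these was higher (background 5.9%) and 5 were lower (background 5.82%). On recovered reads, limma-voom called 0 members (background 0.0159%) and limma-voom with sample quality weights 1 (ATP5MC1, background 5.18%). Limma-trend with array weights called 4 (ND5, NDUFA1, SDHA and ATP5MC1, background 8.3%). The authors' deposited table gave 0 members an FDR under 0.05, where 1.76% of its genes had one. Days did not overlap for 4 of the 93 members (background 8.2%), all of them higher on day 41 (ND4L, ND4, ND5 and NDUFS1, background 4.26%), and for none in the lower direction (background 3.94%).

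**Figure D3:**
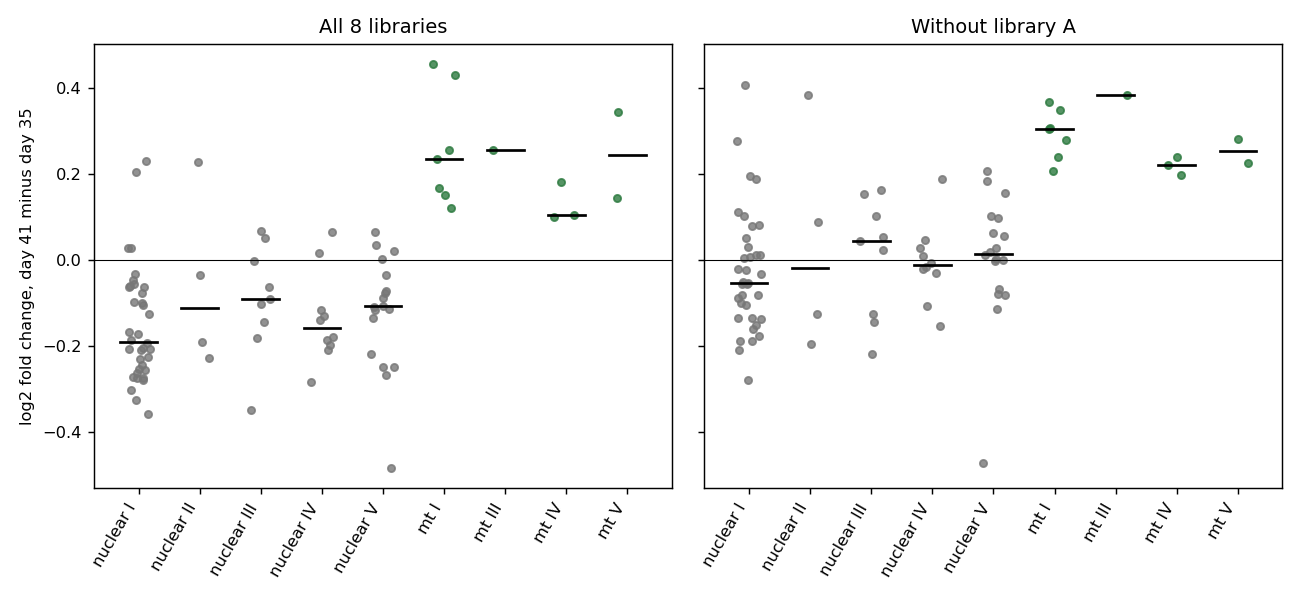
Log2 fold changes (day 41 minus day 35) of the members by genome and complex, with all 8 libraries (left) and without library A (right); each point is a gene, lines are medians, and the low-level isoforms COX6B2, COX7A1, COX7B2 and NDUFA4L2 are not drawn. Nuclear medians lie below 0 on the left and near 0 on the right, while the mitochondrially encoded members lie above 0 in both panels.

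Library A was the highest day 35 library for 70 of the 80 nuclear members, where it was for 42.1% of all tested genes. Its level over the median of libraries B, C and D had a median of 1.37 across nuclear members, 1.27 across mitochondrially encoded ones and 1.01 across all tested genes. Library D was the lowest day 35 library for 75 of the 80, where it was for 28.3% of all tested genes. The geometric mean of the nuclear members without low-level isoforms was 99.01, 75.4, 74.2 and 62.5 RPKM in A to D and 70.4, 66.4, 73.6 and 69.8 RPKM in E to H. All 4 day 41 libraries thus lay between libraries D and B.

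Other genes with short transcripts moved with library A as well. Over all tested genes, the median ratio of A to B, C and D was 1.24 for exon lengths under 800 bases, 1.26 for 800 to 1500 bases and 0.950 above 1500 bases. In the same bins the nuclear members had 1.39, 1.38 and 1.25, and their median exon length was 1090 bases against 2330 over all tested genes. Among 77 cytosolic ribosomal proteins, which are short and abundant, the median ratio was 1.90, and 55 were lower on day 41 with library A and 1 without it. Among 75 mitochondrial ribosomal proteins the ratio was 1.32, and 57 were lower on day 41 with library A and 35 without it. The summed trophectoderm markers were also highest in A, where PAG2 stood at 4349 RPKM against 493 to 781 RPKM in B to D. Library A was the highest day 35 library for 4 of the 9 trophectoderm markers, where it was for 42.1% of all tested genes. The part of these differences in the members' values was not tested.

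The level of the mitochondrially encoded members relative to the nuclear ones does not depend on how libraries are scaled. The ratio of the geometric mean RPKM of the 13 to that of the 77 nuclear members without low-level isoforms was 28.5, 30.9, 36.6 and 37.2 in libraries A to D. In libraries E to H it was 43.5, 42.5, 38.3 and 45.8. Every day 41 library lay above every day 35 library, with a gap from 37.2 (D) to 38.3 (G), and the means were 33.3 ± 4.28 and 42.5 ± 3.13. Without library A, the day 35 range was 30.9 to 37.2. No test was made of this ratio, since it is a score over the members. The ratio was not planned, and the planned measure, the share of all reads, overlapped between the days.

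**Figure D4:**
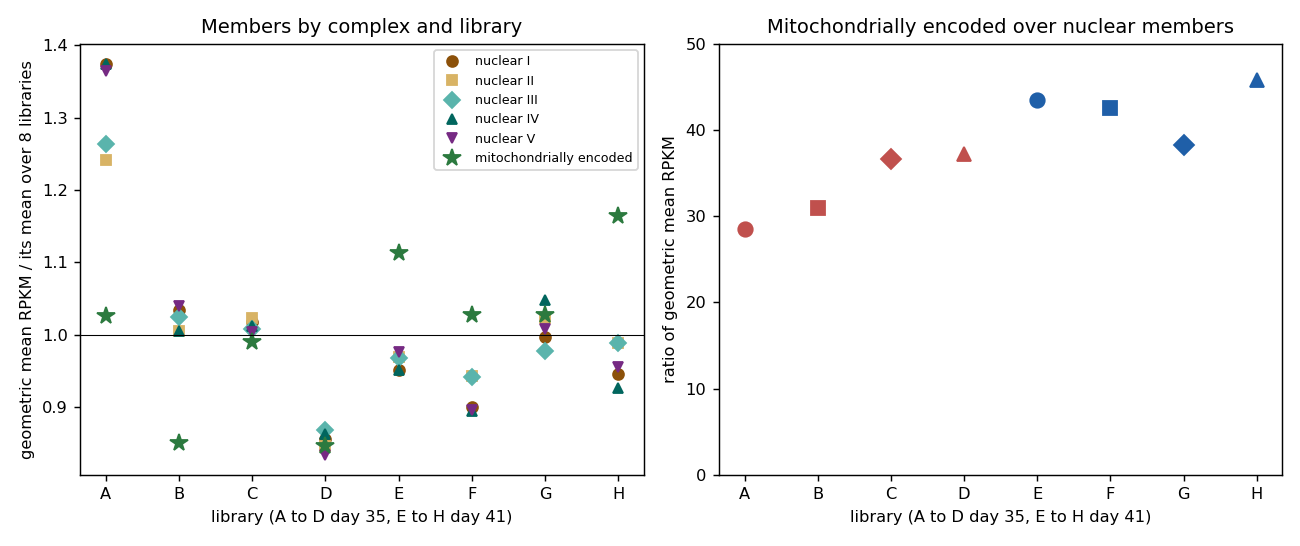
Left, geometric mean RPKM of the members of each complex in each library, divided by its own geometric mean over the 8 libraries; right, ratio of the geometric mean RPKM of mitochondrially encoded to nuclear members (colours mark the day). In the left panel the 5 nuclear complexes move together and are highest in library A and lowest in D, and in the right panel the day 35 ratios (28.5 to 37.2) lie below the day 41 ratios (38.3 to 45.8).

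Complex I takes electrons from NADH, and 32 of its 36 nuclear members had lower values on day 41, 22 without library A. The median log2 fold change was -0.19, and -0.05 without library A. Of the 7 nuclear core subunits 6 were lower and of the 29 accessory subunits 26 were lower, and without library A the counts were 3 and 19. The core subunits NDUFV1, which binds NADH and flavin, and NDUFS7, which carries the last iron-sulfur cluster before ubiquinone, had log2 fold changes of -0.27 and -0.32 with adjusted p of 0.437 and 0.493 in limma.

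NDUFS1, a core subunit with several iron-sulfur clusters, was the 1 nuclear member that was higher on day 41 at an unadjusted p under 0.05. It lies on chromosome 2 at 94460487 to 94489927 and stood at 24.8, 23.1, 26.8 and 26.0 RPKM in libraries A to D and at 27.6, 29.4, 28.2 and 31.4 RPKM in E to H. Every day 41 library was above every day 35 library, and library A was not apart from B to D. The log2 fold change was 0.20 ± 0.08, with a limma adjusted p of 0.392. The ratio of NDUFS1 to NDUFV1, partners in the NADH-oxidising module, was 0.643 to 1.05 on day 35 and 1.08 to 1.23 on day 41. It was not planned or tested. NDUFS1 was named for its small p and NDUFV1 added after its values were seen, so the ratio is not a separate result. With 3338 exonic bases, NDUFS1 had the longest exons of all members.

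NDUFA10, an accessory subunit on the membrane arm, had the lowest log2 fold change of complex I. It stood at 57.1, 57.3, 42.1 and 40.0 RPKM in A to D and at 38.1, 36.9, 34.6 and 41.2 RPKM in E to H. Library H lay above library D, and the log2 fold change was -0.36 ± 0.14 with a limma adjusted p of 0.370. NDUFA13, also known for a role in cell death, averaged 32.7 ± 5.72 RPKM on day 35 and 26.1 ± 0.324 RPKM on day 41, with adjusted p 0.403 in limma. Its day 35 values ran from 25.4 (D) to 39.3 RPKM (A), so library D lay below all 4 day 41 libraries. NDUFS6, a zinc-binding subunit, averaged 58.3 ± 8.78 and 47.7 ± 1.83 RPKM, with adjusted p 0.403 in limma and libraries D and E to H between 45.3 and 49.4 RPKM. NDUFB8, the highest of the complex, averaged 147 ± 25.0 and 121 ± 8.47 RPKM (log2 fold change -0.26, limma adjusted p = 0.496).

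NDUFS4 and NDUFA1 were among the 4 nuclear complex I members with a higher value on day 41. NDUFS4 stood at 29.8 RPKM in library A, at 14.7, 15.3 and 13.3 RPKM in B to D and at 16.5 to 18.8 RPKM on day 41. Its log2 fold change was 0.03 with all libraries and 0.28 without library A. NDUFA1, an X-linked accessory subunit, stood at 130.5 RPKM in A, 73.4 to 85.2 RPKM in B to D and 96.2 to 119 RPKM on day 41. Without A every day 41 library was above every day 35 library for NDUFA1, and its log2 fold change went from 0.23 to 0.41. It was among the genes called higher when limma-trend weighted the libraries by their fit, as was ND5.

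Complex II, succinate dehydrogenase, has no mitochondrially encoded subunit, and its 4 genes had fold changes of both signs. SDHA stood at 83.4, 93.0, 86.7 and 76.3 RPKM in A to D and at 71.6, 76.4, 77.5 and 71.1 RPKM in E to H. The log2 fold change of SDHA was -0.19 ± 0.08 with a limma adjusted p of 0.431, and limma-trend with array weights called it lower. SDHB, the iron-sulfur subunit, averaged 65.4 ± 11.6 and 55.1 ± 1.61 RPKM, and the anchor SDHD 73.6 ± 14.4 and 72.0 ± 14.4 RPKM. The other anchor, SDHC, stood at 66.0 RPKM in A, 37.6 to 47.9 RPKM in B to D and 50.9 to 61.7 RPKM on day 41. The log2 fold change of SDHC was 0.23 ± 0.16 (limma adjusted p = 0.633) and 0.38 without library A. SDHC over SDHA, a ratio that was not planned, was 0.791 in library A, 0.466 to 0.553 in B to D and 0.656 to 0.839 on day 41.

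Complex III passes electrons from ubiquinol to cytochrome c. Of its 9 nuclear members 7 had lower values on day 41, but 3 without library A. UQCR11, a small accessory subunit, stood at 218, 168, 164 and 126 RPKM in A to D and at 134, 120.1, 133 and 133 RPKM in E to H, so library D was below 3 of the day 41 libraries. Its log2 fold change was -0.35 ± 0.15, with a limma adjusted p of 0.422. Of the redox subunits, CYC1 (cytochrome c1) averaged 100.2 ± 8.42 RPKM on day 35 against 90.5 ± 4.46 RPKM later, and UQCRFS1 (the Rieske iron-sulfur protein) 86.4 ± 15.7 against 88.5 ± 1.87 RPKM. UQCRB averaged 167 ± 31.5 and 159 ± 19.1 RPKM. UQCRC2 averaged 42.5 ± 4.43 and 44.5 ± 3.06 RPKM, a log2 fold change of 0.07, and shares 140 exonic bases with PDZD9 on the other strand.

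Complex IV reduces oxygen, and several of its nuclear subunits have widely expressed and tissue-restricted forms. Of its 13 tested nuclear members 9 were lower on day 41, and 6 without library A. The widely expressed forms stood at high levels in every library. COX4I1 averaged 228 ± 58.1 RPKM on day 35 and 197 ± 8.96 RPKM on day 41, COX6A1 153 ± 41.2 and 130.3 ± 8.52 RPKM, and COX6B1 158 ± 31.3 and 142 ± 12.1 RPKM. COX7A2 averaged 148 ± 32.9 and 135 ± 11.9 RPKM, COX7B 49.4 ± 9.47 and 51.1 ± 1.35 RPKM, COX8A 148 ± 16.6 and 128 ± 12.6 RPKM, and NDUFA4 145 ± 35.4 and 129 ± 18.5 RPKM. For all 7 the highest day 35 value was that of library A and the days overlapped. Their log2 fold changes lay between -0.21 (COX8A) and 0.07 (COX7B), those of COX7A2 and NDUFA4 turned positive without library A, and that of COX7B turned negative without library D.

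The tissue-restricted forms were low. COX7A1, the heart and skeletal muscle form, had 1.64 to 4.28 RPKM over the 8 libraries, and COX6B2, the testis form, had 1.34 to 4.94 RPKM. NDUFA4L2, a relative of NDUFA4 known as a hypoxia-induced gene in human and mouse cells, had 0.0346 to 0.643 RPKM, on 4 to 94 reads per library. COX7B2, a testis form in human, stood at 1.63, 1.72, 1.56 and 0.305 RPKM in A to D and at 3.36, 4.605, 29.6 and 0.452 RPKM in E to H. Library G held most of the day 41 mean of COX7B2, 9.51 ± 13.5 RPKM. Its log2 fold change was 1.38 ± 0.79 (limma adjusted p = 0.539) and 0.57 without library G. COX7A2L, which joins complexes III and IV in mouse, averaged 105 ± 27.0 and 90.6 ± 7.55 RPKM, with 146 RPKM in library A and 79.9 to 96.7 RPKM in the other 7.

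**Figure D5:**
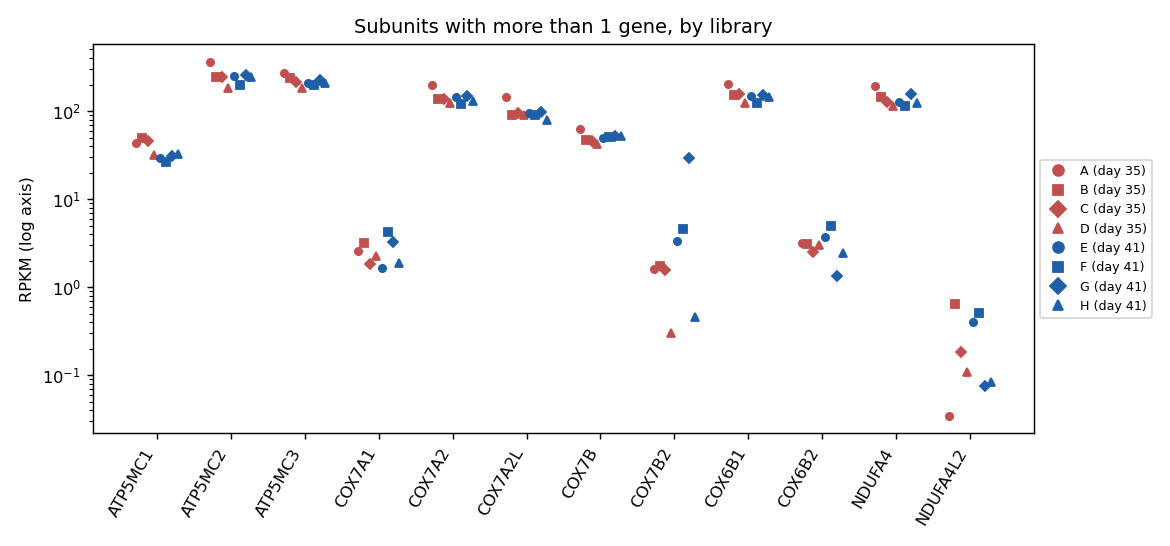
RPKM (log axis) of subunits with more than 1 gene in each library; red symbols are day 35 (A to D), blue symbols day 41 (E to H). The widely expressed forms lie above the tissue-restricted forms COX7A1, COX7B2, COX6B2 and NDUFA4L2 in every library, and COX7B2 reaches 29.6 RPKM in library G.

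Complex V makes ATP, and 14 of its 18 nuclear members had lower values on day 41, but 6 without library A. The head subunits ATP5F1A and ATP5F1B (alpha and beta) had close means on both days. ATP5F1A averaged 250.3 ± 17.2 RPKM on day 35 and 251 ± 15.8 RPKM on day 41, with a 95% interval of the log2 fold change from -0.21 to 0.21. ATP5F1B averaged 356 ± 31.6 and 347 ± 20.8 RPKM, with an interval from -0.26 to 0.20. ATP5IF1, the inhibitor of ATP hydrolysis by the complex, averaged 222 ± 65.2 and 221 ± 33.2 RPKM, with library A highest at 319 RPKM.

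ATP5MC1 had the smallest p of all members. It is 1 of 3 nuclear genes, with ATP5MC2 and ATP5MC3, that encode the same mature subunit c of the proton-driven ring and differ in their import sequences. ATP5MC1 (chromosome 19, 37618130 to 37621478) stood at 42.9, 49.5, 45.6 and 31.5 RPKM in A to D and at 29.6, 26.1, 30.7 and 32.5 RPKM in E to H. Libraries A, B and C lay above all of day 41, and library D lay below library H. The log2 fold change was -0.48 ± 0.14, with a limma adjusted p of 0.267 in the main test and -0.40 to -0.62 when single libraries were left out. Both weighted alternatives called ATP5MC1 lower. In the authors' deposited table its log2 fold change was -0.53 and its FDR 0.0821, the smallest among the members.

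The other subunit c genes had fold changes closer to 0. ATP5MC2 averaged 258 ± 76.1 and 238 ± 26.3 RPKM and ATP5MC3 225 ± 36.2 and 209.8 ± 11.9 RPKM, so ATP5MC1 was the least abundant of the 3 per length in every library. Log2 fold changes were -0.08 for ATP5MC2 and -0.09 for ATP5MC3, and both were above 0 without library A. ATP5MC1 over ATP5MC3 was 0.160 to 0.213 on day 35 and 0.133 to 0.157 on day 41, and the days did not overlap. ATP5MC1 was named for its small p between the days, so its ratios repeat the same values and are not separate results. They were not planned and were not tested. ATP5MC1 over ATP5MC2 was 0.174 to 0.205 in B to D and 0.118 to 0.133 on day 41, but library A, at 0.118, lay within the day 41 range.

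Genes that build or feed the respiratory chain were read from 11 lists, of which 126 genes were tested. None passed the threshold in limma-trend or limma-voom. At an unadjusted p under 0.05, 1 was higher (background 5.9%) and 7 were lower (background 5.82%). Days did not overlap for 4 of the 126 in the higher direction (background 4.26%) and 5 in the lower (background 3.94%). With sample quality weights 3 of the 126 were called (background 5.18%) and with array weights 8 (background 8.3%). EGLN3 (higher), IDH3A and COQ7 (lower) were among both, and CYCS (lower) among the 8. The lists for assembly of complexes I to V had 6, 1, 2, 7 and 0 genes higher and 9, 3, 3, 14 and 4 lower. Over all tested genes 47.4% were lower. Without library A these lists had 8, 2, 2, 13 and 0 genes higher and 7, 2, 3, 8 and 4 lower. The complex I assembly factor NDUFAF2 averaged 7.13 ± 0.901 RPKM on day 35 against 5.81 ± 0.309 RPKM on day 41, without overlap (limma adjusted p = 0.406). TMEM186, from the same list, averaged 5.66 ± 0.717 against 4.52 ± 0.288 RPKM (limma adjusted p = 0.396). NUBPL, which delivers iron-sulfur clusters to complex I, averaged 2.20 ± 0.0738 and 2.83 ± 0.454 RPKM (limma adjusted p = 0.427), and its days did not overlap. Of the copper factors of complex IV, COX19 averaged 14.1 ± 1.94 RPKM on day 35 against 11.5 ± 0.466 RPKM on day 41, and SCO2 15.4 ± 0.641 against 13.2 ± 1.38 RPKM, with no overlap for either (limma adjusted p = 0.388 and 0.430).

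Among the mobile electron carriers, 4 genes were higher and 10 lower, where 47.4% of all tested genes were lower. Without library A the counts were 6 and 8. CYCS, cytochrome c itself, stood at 77.8, 74.4, 67.6 and 60.9 RPKM in A to D and at 54.0, 58.8, 61.3 and 57.5 RPKM in E to H, with a log2 fold change of -0.27 ± 0.10 and a limma adjusted p of 0.342. Library G was the 1 day 41 library above library D. COQ7, a hydroxylase of ubiquinone synthesis, averaged 14.2 ± 1.76 and 9.86 ± 2.59 RPKM (log2 fold change -0.50, limma adjusted p = 0.320), with library G at 13.7 RPKM and the other day 41 libraries at 8.29 to 8.74 RPKM.

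Genes that transcribe and keep mitochondrial DNA had 7 higher and 8 lower (8 and 7 without library A), with a median log2 fold change of -0.02. TFAM, which packs mitochondrial DNA and starts its transcription, averaged 15.97 ± 2.70 and 16.9 ± 0.605 RPKM, and POLRMT, the mitochondrial RNA polymerase, 7.72 ± 1.47 and 8.26 ± 0.836 RPKM. Both had their lowest value in library A, at 12.0 and 5.69 RPKM. The list for processing and stability of mitochondrial RNA had 11 higher and 7 lower (12 and 6 without library A), with a median of 0.04. Its members with the smallest p were LRPPRC, which protects mitochondrial messenger RNAs, at 25.7 ± 1.96 and 28.4 ± 0.987 RPKM, and PRORP, which cuts the 5' ends of mitochondrial tRNAs, at 3.24 ± 0.306 and 3.75 ± 0.0926 RPKM. Limma gave them adjusted p of 0.523 and 0.525. Among nuclear regulators of respiratory genes 6 were higher and 2 lower, where 52.6% of all tested genes were higher. Without library A the counts were 4 and 4. GABPA, from this list, averaged 21.3 ± 2.06 and 25.0 ± 2.54 RPKM (limma adjusted p = 0.471). GABPA shares 215 exonic bases on the other strand with the complex V gene ATP5PF, and whether strand was used in counting is not given in the sources used here.

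Oxygen sensing genes had 4 higher and 2 lower, and citric acid cycle genes 8 and 8. Without library A the counts were 4 and 2 for the first list and 7 and 9 for the second. EGLN3, a prolyl hydroxylase that uses oxygen to mark hypoxia-inducible factors, stood at 51.9 to 65.8 RPKM on day 35 and at 94.8, 129, 103 and 162 RPKM in E to H, without overlap. The log2 fold change of EGLN3 was 1.01 ± 0.17 with a limma adjusted p of 0.113. EPAS1, a hypoxia-inducible factor, averaged 73.8 ± 11.8 and 42.1 ± 13.8 RPKM (log2 fold change -0.83, limma adjusted p = 0.223), with library E at 62.6 RPKM within the day 35 range. IDH3A, a subunit of the NAD-linked isocitrate dehydrogenase that feeds complex I, averaged 64.1 ± 5.90 and 44.9 ± 8.76 RPKM (log2 fold change -0.52, limma adjusted p = 0.235). These 3 were the genes of the 11 lists with an FDR under 0.05 in the authors' deposited table, at 5.58e-06, 3.17e-04 and 0.0341. They were 3 of 128 list genes with values, where 1.76% of all genes had such an FDR.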

How the data were processed

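Total RNA of 8 single-embryo outgrowths was sequenced. Per the submitters' processing notes, the tools were HISAT2, featureCounts, edgeR and FastQC and the build was ARS-UCD1.2, with no versions given. RPKM values were computed by the authors, who also deposited log2 fold changes, a likelihood ratio score, p-values and FDR per gene for the same comparison. How reads that fit several places, and strand, were counted is not given in the sources used here. Columns name the day but not the outgrowth, so letters A to H follow column order only.

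Days were compared with limma 3.58.1 (R 4.3.3), limma-trend on log2(RPKM + 1), two-sided, over 12582 genes with at least 0.5 RPKM in at least 4 libraries, with Benjamini-Hochberg adjustment over all of them and a threshold of 0.05. This scale understates fold changes of low genes. Reads were recovered from the deposited RPKM, whose products with exon length were whole multiples of 1 step per library (within 0.01 for 100% of values), which gave 106402848 to 158034430 reads per library. They served for shares, read numbers and limma-voom. Reads are not independent molecules, so all errors are spreads between outgrowths. Tables were handled in Python 3.11.15 with pandas 2.3.3 and numpy 2.4.6, and the fitting scripts were tested on simulated data.

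The members follow a rule on names and position that uses no measured value. That rule, and the related and marker lists (17 lists, 172 symbols), were chosen with earlier results of these data known. Named were all mitochondrially encoded members, the 5 nuclear members with the smallest p in each direction, the highest and lowest of each complex, all forms of subunits with more than 1 gene, and up to 2 genes per related list and direction. Some of the related genes that this allowed were left out, and some members and genes (such as NDUFV1, SDHB, ATP5F1A, TFAM and POLRMT) were added for their role after their values were seen. Alternatives were other scalings, filters and pseudocounts, limma-voom with and without sample quality weights, array weights, and leaving out each library.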

Additional observations from a re-analysis of the deposited data

Results flagged for a closer look

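In 8 of 94 looked-at groups of 4 libraries, 1 library lay far from the other 3, by a gap that took up most of the group's range. Chance alone gives such a gap in about 1 of 20 groups.

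On day 35, library A was far above the others for NDUFS4 (29.8 RPKM against 13.3 to 15.3) and for COX7A2L (146 RPKM against 89.7 to 94.6), and library D was far below them for COX7B2 (0.305 RPKM against 1.56 to 1.72). On day 41, library G was far above the others for COX7B2 (29.6 RPKM against 0.452 to 4.605) and for COX4I1 (210.1 RPKM against 191 to 194). Library F was far below them for ND6 (1223 RPKM against 1283 to 1295) and for UQCR11 (120.1 RPKM against 133 to 134). The ratio of ND3 to ND4L was 2.07 in library F and 1.86 to 1.89 in the other day 41 libraries.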

How the results depend on the processing

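All 13 mitochondrially encoded members stayed higher on day 41 under every scaling, filter, pseudocount, test and left-out library, with a median log2 fold change of 0.12 to 0.28. Genes called, 6 in the main test, were 3 without a filter, 3 with a pseudocount of 0.1, 2 in limma-voom, 652 in limma-voom with sample quality weights, 1044 with array weights and 0 to 43 when a library was left out; the cause was not tested, and library A had the lowest array weight (0.128). Members called, 0 in the main test, were 1 and 4 under the 2 weightings. Genes called from the related lists, 0 in the main test, were 3 and 8. The counts for related lists and by direction under the alternatives were added after seeing the data. Nuclear members lower on day 41 were 65, 60 with totals over nuclear genes, 54 under either weighting and 39 (without A) to 75 (without D), with a median log2 fold change of 0.0009 to -0.23. Scalings moved the all-gene median by under 0.1. The values of single members given here cover only the 40 tested members that the naming rule gave, not all 93. Of these 760 values, 725 kept sign and side of the threshold, 5 passed it and 30 (11 of those 40 members) turned sign. With totals over nuclear genes, ATP5F1B was at 0.0033 and COX6B2 at 0.0035. With quality weights and with array weights, COX7A2 was at 0.019 and 0.026, COX7A1 at -0.13 and -0.10, COX6B2 at 0.20 and 0.19, and ATP5MC2 at 0.052 and 0.051. Leaving out libraries gave ranges across 0 for UQCRB (-0.16 to 0.054), COX7A2 (-0.19 to 0.027), COX6B2 (-0.23 to 0.22), ATP5MC3 (-0.18 to 0.0014), ATP5MC2 (-0.23 to 0.10), NDUFA4 (-0.25 to 0.0093), NDUFS4 (-0.091 to 0.28), ATP5F1B (-0.085 to 0.0057), COX7A1 (-0.11 to 0.22), UQCRC2 (-0.0049 to 0.11) and COX7B (-0.0086 to 0.19). No paired analysis was possible because the columns carry no outgrowth number and the days share only 1 number in the titles. A planned quasi-likelihood count test on the recovered reads was not run, and limma-voom, with and without weights, was the method used on them.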

Other observations

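The mitochondrial chromosome had 7 further rows without a symbol, outside the members. ENSBTAG00000043545, 71 bases at 7229 to 7299 on the strand opposite to COX1 and sharing 3 bases with it, stood at 11.8 to 22.2 RPKM on day 35 and 6.21 to 9.23 RPKM on day 41, without overlap, on 59 to 184 reads per library. Its log2 fold change was -0.91 ± 0.20, opposite in sign to all 13 mitochondrially encoded members, with a limma adjusted p of 0.200, and the authors' deposited table gave it an FDR of 0.388. ENSBTAG00000043582, 66 bases at 15726 to 15791, was as abundant per length as the members, at 2477 to 4373 RPKM, with library A highest and D lowest. The longest 2 of these rows, of 955 and 1571 bases, stood at 166 to 309 and 198 to 299 RPKM, below every mitochondrially encoded member. They had log2 fold changes of -0.24 and -0.18 with limma adjusted p of 0.605 and 0.643. The rows of 72, 73 and 67 bases, on 10 to 59 reads per library, had log2 fold changes of -0.08, -0.10 and -0.32. That of ENSBTAG00000043582 was 0.04.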
